A study of Rattus norvegicus with 9 samples.

Results

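The genes described here are 4 transcription factors of the nephric duct, Pax8, Lhx1, Gata3 and Emx2, and cadherin 16, encoded by Cdh16. All probe sets were taken whose symbol in the platform's probe table is one of these names, which gave 5 probe sets of the 15923 on the array, 1 for each gene, out of 10412 genes named there. They are 1387730_at for Pax8, 1377206_at for Lhx1, 1369525_at for Gata3, 1377311_at for Emx2 and 1390822_at for Cdh16. Signals were measured on 9 rat arrays of ureteric buds, 3 for each of 3 culture media. The buds were dissected from Sprague-Dawley rat embryos at embryonic day 13 and kept for 4 days in a gel of equal parts Matrigel, growth factor reduced, and collagen of type 1. All media held 250 ng/ml FGF1 and 125 ng/ml GDNF, which signals through Ret. The BSN medium added the conditioned medium of a cell line from metanephric mesenchyme. The HRG medium added 500 ng/ml heregulin, which activates ErbB receptors, and the PTN medium added pleiotrophin, a heparin-binding factor purified from that conditioned medium, at approximately 3 µg/ml. RNA of 3 buds made 1 sample and was amplified in a double round. The series' design text calls the samples of a medium biological replicates. The series title counts PTN cultures as branching and the description of its samples as non-branching, so groups are named by medium only. What else the conditioned medium held is not given in the sources used here, and no group had FGF1 and GDNF alone, so higher in one medium cannot be told from lower in the other.

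The ureteric bud grows out of the nephric duct, the epithelial tube that precedes the kidney, and branches into the collecting duct tree. Pax8 acts with its relative Pax2 to set up the duct lineage. Gata3 and the LIM homeodomain factor Lhx1 act below the Pax factors, Gata3 being needed for Ret expression and Lhx1 for the extension of the duct, and the homeodomain factor Emx2 is needed for the bud to go on growing once it has entered the mesenchyme. Cadherin 16, also called Ksp-cadherin, is a cell adhesion protein of kidney tubule and collecting duct epithelium. Pax8 and Lhx1 are also expressed in the early nephron.

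In these cultures the 5 genes did not behave as one group. Lhx1 was lower in heregulin than in either other medium, Cdh16 was lower in pleiotrophin than in either other medium, and neither Emx2 nor Gata3 passed the test in any of the 3 comparisons. Pax8 was too dim to be tested with the rest.

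The proximal promoters of Lhx1, the factor that differed between media, and of Gata3, which did not pass, are given to show their sequence around the start. Each is 250 bases before to 50 after the start, from RefSeq on build GRCr8. Lhx1 lies on the minus strand at chr10:69901027-69901326 and Gata3 on the plus strand at chr17:73553298-73553597. Of the 5 genes 3 had an entry, Pax8 being the other. Capitals mark matches, on either strand, to 6 motifs. These were the GATA factor core GATAA, the homeodomain core TAATTA, the sequence GTTAAT from the site of HNF1 factors, the ETS factor core CCGGAA, the promoter element TATAAA and the promoter element CCAAT.
Lhx1: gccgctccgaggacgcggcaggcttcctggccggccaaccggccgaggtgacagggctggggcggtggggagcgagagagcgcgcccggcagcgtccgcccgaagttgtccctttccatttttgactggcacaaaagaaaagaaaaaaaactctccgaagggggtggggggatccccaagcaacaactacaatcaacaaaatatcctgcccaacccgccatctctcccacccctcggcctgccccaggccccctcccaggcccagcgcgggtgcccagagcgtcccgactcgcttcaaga
Gata3: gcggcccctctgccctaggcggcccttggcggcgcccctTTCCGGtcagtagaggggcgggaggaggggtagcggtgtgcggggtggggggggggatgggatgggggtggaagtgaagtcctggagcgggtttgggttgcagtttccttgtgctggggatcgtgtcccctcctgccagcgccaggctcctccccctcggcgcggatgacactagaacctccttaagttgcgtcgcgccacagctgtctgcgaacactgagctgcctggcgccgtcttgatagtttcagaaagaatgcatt
The Lhx1 window held none of these 6 motifs. The Gata3 window held 1, an ETS core on the reverse strand that starts at base 40 of the window, and 15% of 33469 promoters of that length hold this motif. The Pax8 window held 1 GATAA and 1 CCAAT, found in 26.5% and 37.5% of promoters. TAATTA was in 5.4%, GTTAAT in 7.5% and TATAAA in 14.2% of them. The windows are rich in G and C, at 64.7% for Lhx1, 65% for Gata3 and 61.7% for Pax8, against a median of 51.7%.

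The signals are the deposited GCOS values on a linear scale in arbitrary units, which already share a trimmed mean of about 2500.5 on every array. Testing was limited to the 10106 probe sets that exceeded the 40th percentile of signals on 3 or more arrays. Lhx1, Emx2 and Cdh16 were above it on 9 of 9 arrays, Gata3 on 8 and Pax8 on 0, so 4 of the 5 members were tested. Changes are differences of log2(signal + 16) from one limma fit over all 9 arrays, with Benjamini-Hochberg adjustment of p across every kept probe set and a threshold of 0.05. Each gene has a single probe set here, so none of these values has a second probe set beside it.

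The cells were checked against marker lists. Of 11 ureteric bud epithelium markers 8 were on the array and 6 were kept: Epcam lay between 52553 and 69377 on all 9 arrays, the keratin gene Krt8 between 13203 and 23922, and Krt18 between 13070 and 32195. Cdh1 lay between 8774 and 18523. The other kept markers differed by medium. Ret was at 790 to 1112 in HRG and 11483 to 19681 elsewhere, and Krt19 at 10154 to 11298 in HRG and 2123 to 3684.5 elsewhere. Hoxb7 (101 to 555) and Calb1 (132 to 1214) were not kept. Of 8 markers of nephron progenitors and mesenchyme only Gdnf and Wt1 were on the array, and neither was kept (56.4 to 109 and 294 to 546). Of 6 endothelial markers on the array 2 were kept, Kdr at 309 to 977 and Esam at 708 to 1212, while Pecam1 lay between 30.8 and 185. Of 7 blood and immune markers 4 were kept, Lyz2 at 560 to 1170.0, Cd74 at 376 to 1169, Aif1 at 1023 to 1556 and Csf1r at 580 to 970.2, while Ptprc lay between 40.9 and 231. Some signal of both lists was therefore above the filter, and no marker was listed at 0. The mean correlation of an array with the others of its group was 0.961 to 0.977, and the lowest belonged to PTN replicate 1.

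Lhx1 had signals of 4474, 5018 and 5026 in the BSN arrays and 5802, 4279 and 4119 in the PTN arrays. In the HRG arrays it was at 2367, 1698 and 1656. All 3 heregulin arrays were below all 6 others, and the BSN and PTN arrays overlapped. The means were 4839 ± 316 in BSN, 4734 ± 929 in PTN and 1907 ± 399 in HRG (n = 3, SD). Lhx1 fell 2.56-fold in HRG against BSN (log2 change -1.35, 95% interval -1.73 to -0.98, adjusted p = 0.000192) and 2.47-fold in HRG against PTN (-1.31, -1.68 to -0.93, adjusted p = 0.000146), comparisons that share the heregulin arrays. Between PTN and BSN the change was -0.05 (-0.42 to 0.33, adjusted p = 0.871). In bulk RNA, fewer cells with the transcript and less transcript per cell cannot be told apart.

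**Figure D1:**
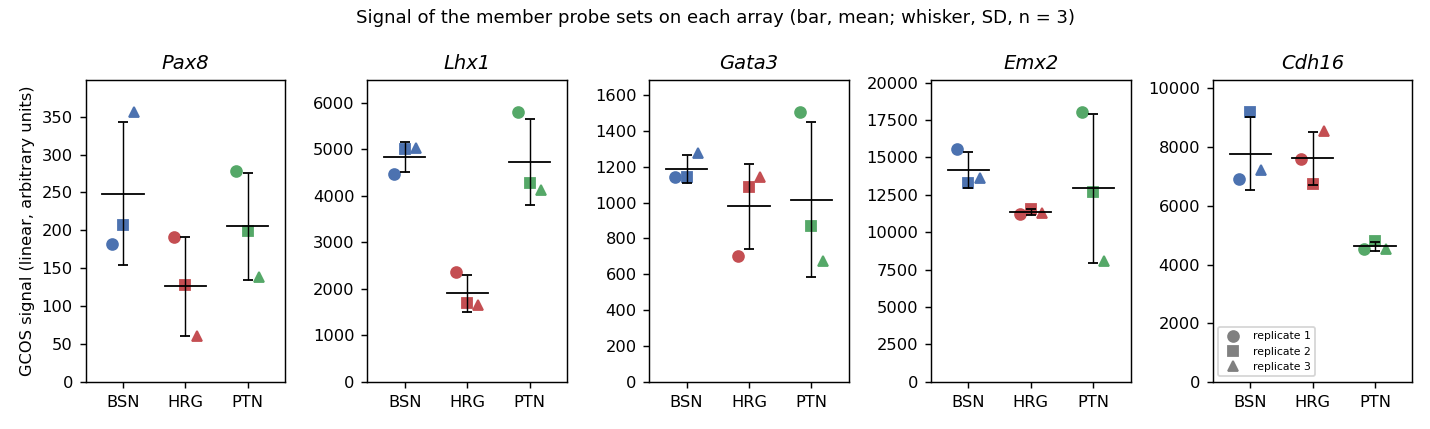
GCOS signal (linear scale, arbitrary units) of the 5 probe sets on each of 9 arrays by medium; points are arrays, horizontal bars means and whiskers SD (n = 3). Lhx1 lies at 1656 to 2367 in HRG and at 4119 to 5802 elsewhere, and Cdh16 lies at 4517 to 4809 in PTN and at 6731 to 9195 elsewhere.

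Other measures also moved with heregulin. The summed signal of 9 stroma and fibroblast markers was 3690 to 5263 in HRG, below 5613 to 6166 in BSN, and overlapped 5080 to 5566 in PTN. Of the 5 kept stroma markers only Vim was lower in HRG than in BSN (adjusted p = 0.0456), a call lost in 9 of 18 alternatives (largest adjusted p 0.178, without HRG replicate 3). Between HRG and PTN 0 passed in the fit as reported. With the replicate block Vim passed as lower in HRG (log2 change -0.72, adjusted p = 0.0226). Col1a2 passed as lower in HRG with array weights (-0.82, adjusted p = 0.0236) and without PTN replicate 1 (-0.8, 0.0318). Of the 2 kept endothelial markers Kdr was lower in HRG than in both (adjusted p = 0.00792 and 0.00258). In HRG Kdr lay at 309 to 361, under the 40th percentile of those arrays (666 to 731). It was thus kept only through BSN and PTN arrays, and its calls are no separate support. The sum of 12 early nephron markers was 10526 to 12905 in HRG, above 7727 to 8720 in BSN and 6859 to 7327 in PTN. Only 4 of the 12 were kept. Of these Wnt4 and Lrp2 were higher and Synpo lower in HRG than in both other media, and Jag1 did not pass. Wnt4 was kept only through HRG, the medium where it was high, so its part in the sum is no separate support. The ureteric bud sum in HRG (136465 to 151661) overlapped that in BSN (135112 to 145851). Single bud markers still differed. Of the 6 kept, Ret was lower and Krt19 higher in HRG than in BSN (adjusted p = 1.8e-08 and 5.15e-06), and 4 did not pass. The actin control's ratio of 3' to 5' signal, higher in RNA weighted to its 3' end, was 18.6 to 29.6 in HRG and 28 to 37.8 in BSN, which overlap. The same ratio of the GAPDH control was 2.01 to 3.49 in HRG, below 3.75 to 5.83 in BSN, and overlapped 2.97 to 6.85 in PTN. The part of these measures in the Lhx1 result was not tested.

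The genes whose pattern over the 9 arrays was most like that of Lhx1 were Gfra1, Fn1 and Xkr5. Likeness was the root mean square difference of log2 signals, each centred on the gene's own mean, and the median over all named kept probe sets was 0.7 for Lhx1. Gfra1, which encodes the co-receptor that presents GDNF to Ret, differed from Lhx1 by 0.1. It was at 5916 ± 513 in BSN, 2113 ± 340 in HRG and 5771 ± 584 in PTN (n = 3, SD). Fn1, encoding fibronectin, differed by 0.17, with 5765 ± 556, 2687 ± 163 and 5695 ± 704 in the same order. Xkr5, a membrane protein gene, differed by 0.17, with 1934 ± 277, 673 ± 106 and 2129 ± 480. In all 4 genes the heregulin arrays were the low ones and PTN replicate 1 was the highest of its group. The 3 were picked on these same arrays for likeness to Lhx1, so the shared pattern follows from the choice. Xkr5 in HRG lay near the 40th percentile of those arrays (666 to 731).

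**Figure D2:**
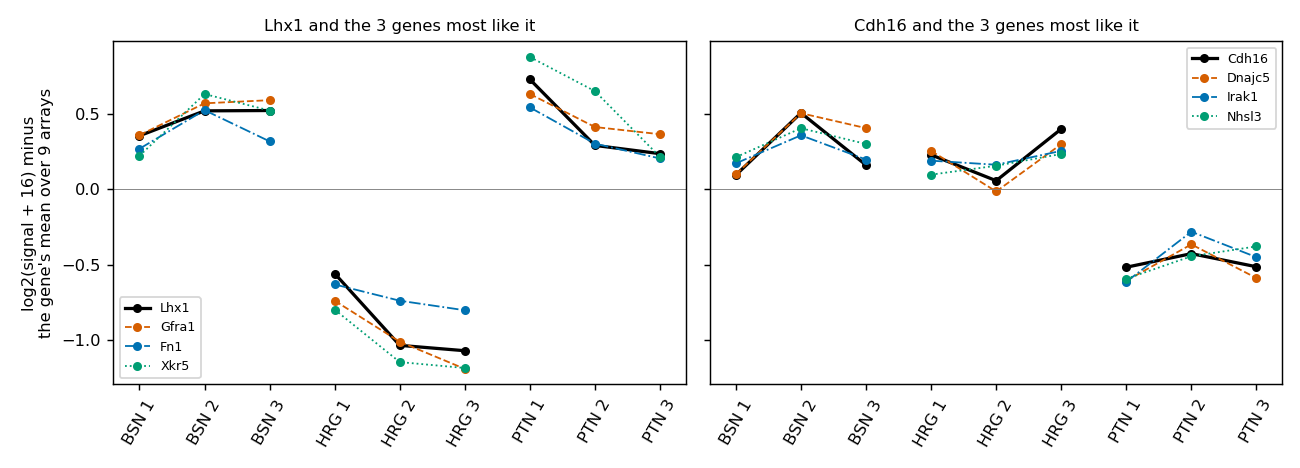
Log2(signal + 16) minus each gene's mean over the 9 arrays, for Lhx1 (left) and Cdh16 (right) with the 3 genes most like each; points are arrays and lines join arrays of one medium without implying an order. The Lhx1 panel drops in HRG and the Cdh16 panel drops in PTN.

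Cdh16 had signals of 6910, 9195 and 7233 in BSN and 7582, 6731 and 8541 in HRG. In PTN it was at 4517, 4809 and 4527. The pleiotrophin arrays were all below the other 6 and close to each other, and BSN and HRG overlapped. The means were 7780 ± 1237 in BSN, 7618 ± 906 in HRG and 4618 ± 166 in PTN (n = 3, SD). Cdh16 fell 1.67-fold in PTN against BSN (log2 change -0.74, 95% interval -1.05 to -0.43, adjusted p = 0.00367). It was 1.64-fold higher in HRG than in PTN (0.71, 0.4 to 1.03, adjusted p = 0.00304), a comparison that shares the pleiotrophin arrays with the one before. Between HRG and BSN the change was -0.03 (-0.34 to 0.29, adjusted p = 0.938).

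Beside the Cdh16 difference, the summed signal of the ureteric bud markers was 114268 to 129875 in PTN, below 135112 to 145851 in BSN and 136465 to 151661 in HRG. Of the 6 kept bud markers 2 were lower and 1 was higher in PTN than in BSN: Krt18 fell 1.8-fold, Krt8 fell 1.33-fold and Ret rose 1.4-fold, the last a call lost in 10 of 19 alternatives (largest adjusted p 0.16). Epcam did not pass (log2 change -0.19, -0.42 to 0.04, adjusted p = 0.224). The Krt8 call was lost with each array centred on its median (adjusted p = 0.31), without BSN replicate 1 (0.0993), 2 (0.117) or 3 (0.0975), and without PTN replicate 2 (0.143) or 3 (0.157), among 12 alternatives in all. In HRG against PTN Krt8, Krt18 and Krt19 were higher in HRG (adjusted p = 0.00299, 0.00117 and 7.89e-07) and Ret was lower (4.14e-09). Cdh1 and Epcam did not pass there. Each of these calls changed in 0 of 19 alternatives. The early nephron sum (6859 to 7327 in PTN against 7727 to 8720 in BSN) and the stroma sum (5080 to 5566 against 5613 to 6166) were also lower in PTN than in BSN without overlap. Single markers bore little of this out. Of the 5 kept stroma markers 0 passed in PTN against BSN, where 22.5% of all kept probe sets passed. Of the 4 kept early nephron markers only Synpo passed, as lower in PTN (adjusted p = 0.0312), a call lost in 8 of 19 alternatives. Of the 4 kept blood and immune markers Cd74 was lower in PTN than in BSN (adjusted p = 0.0331), a call lost in 8 of 18 alternatives. Cd74 exceeded the 40th percentile only on BSN arrays, and in PTN it lay at 376 to 659. It was thus kept only through the medium where it was high, and its call is no separate support. The actin 3'/5' ratio was 15.3 to 18.1 in PTN, below 18.6 to 29.6 in HRG and 28 to 37.8 in BSN, and the GAPDH ratio in PTN overlapped both. The part of these measures in the Cdh16 result was not tested.

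The genes most like Cdh16 were Dnajc5, Irak1 and Nhsl3, at root mean square differences of 0.1, 0.1 and 0.12 against a median of 0.42. Dnajc5, a co-chaperone of secretory vesicles, was at 16073 ± 2269 in BSN, 14379 ± 1638 in HRG and 8833 ± 844 in PTN (n = 3, SD). Irak1, a kinase of interleukin 1 receptor signalling, was at 9412 ± 670, 9143 ± 302 and 5842 ± 674 in that order, and Nhsl3 at 4483 ± 301, 4054 ± 194 and 2609 ± 197. In each of them the pleiotrophin arrays were the low ones, which follows from picking them on these arrays for likeness to Cdh16.

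Emx2 had signals of 15550, 13262 and 13647 in BSN and 11232, 11557 and 11258 in HRG. In PTN it was at 18024, 12710 and 8086, which spans the values of both other media. All heregulin arrays were below all BSN arrays, by a small margin. The means were 14153 ± 1225 in BSN, 11349 ± 181 in HRG and 12940 ± 4973 in PTN (n = 3, SD). The log2 change was -0.31 in HRG against BSN (95% interval -0.79 to 0.16, adjusted p = 0.385), -0.11 in HRG against PTN (-0.59 to 0.36, adjusted p = 0.746) and -0.2 in PTN against BSN (-0.67 to 0.27, adjusted p = 0.539). Without PTN replicate 1, Emx2 passed as lower in PTN than in BSN (log2 change -0.48, adjusted p = 0.0441). Without PTN replicate 3 that change was 0.1 (adjusted p = 0.719), so the direction rested on single pleiotrophin arrays.

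Gata3 was at 1142, 1145 and 1276 in BSN and 704, 1088 and 1143 in HRG. In PTN it was at 1504, 867 and 677. The media overlapped, and HRG replicate 1 fell below its array's 40th percentile. The means were 1187 ± 76.6 in BSN, 978 ± 239 in HRG and 1016 ± 433 in PTN (n = 3, SD). The log2 change was -0.3 in HRG against BSN (95% interval -0.89 to 0.28, adjusted p = 0.51), -0.0045 in HRG against PTN (-0.59 to 0.58, adjusted p = 0.993) and -0.3 in PTN against BSN (-0.88 to 0.28, adjusted p = 0.446). As ratios, the lower bounds were 0.541 in HRG over BSN and 0.542 in PTN over BSN, so falls of that size were not resolved with 3 arrays a group. Without PTN replicate 1, Gata3 passed as lower in PTN than in BSN (log2 change -0.62, adjusted p = 0.0498).

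Pax8 was at 182, 206 and 356 in BSN, 191, 128 and 60.3 in HRG, and 279, 198 and 138 in PTN. The media overlapped, and all 9 values were under the 40th percentile of their arrays, which was 580 to 788. In a fit without the filter the adjusted p of HRG was 0.218 against BSN and 0.322 against PTN, and that of PTN against BSN was 0.742. No fold is given, since at such signals it depends on the pseudocount.

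**Figure D3:**
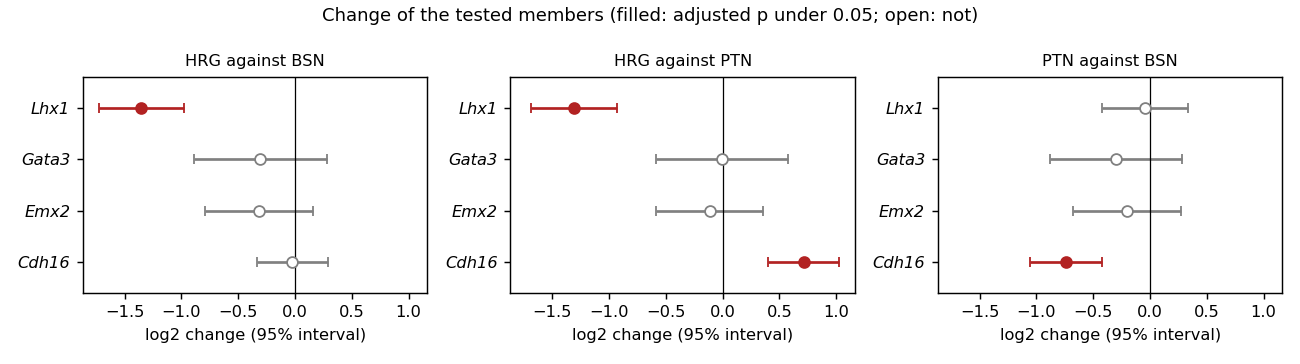
Log2 change with its 95% interval for the 4 tested members in each comparison; filled points have an adjusted p under 0.05. Lhx1 is filled in both comparisons with HRG (-1.35 and -1.31) and Cdh16 in both with PTN (0.71 and -0.74), and the intervals of Emx2 and Gata3 cross 0 throughout.

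Counted over the 4 tested members, 1 was lower and 0 were higher in HRG against BSN, where 15.8% of all kept probe sets passed, 8.86% lower and 6.92% higher. In HRG against PTN 1 was higher and 1 lower, with 25.8% of all passing, 14.1% higher and 11.7% lower. In PTN against BSN 1 was lower and 0 were higher, with 22.5% passing, 13.4% lower and 9.15% higher. The members' median log2 change was -0.31, -0.06 and -0.25 in that order, beside -0.04, 0.08 and -0.11 over all kept probe sets. Arrays did not overlap for 2, 2 and 1 of the 4 members, against 37%, 40.2% and 38.5% of all kept probe sets. Centring each array on its median moved the median over all probe sets to 0.06, -0.03 and 0.1. With it Lhx1 in HRG changed by -1.25 against BSN and -1.42 against PTN, and Cdh16 by 0.6 in HRG against PTN and -0.53 in PTN against BSN (adjusted p = 0.0381), and all of these passed. Among all calls the split for HRG against BSN was 699 higher and 895 lower, for HRG against PTN 1423 and 1180, and in PTN against BSN 925 and 1351. After centring it was 855 and 623, 943 and 1452, and 1598 and 645.

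The spread within a medium differed between the members. In PTN the SD of log2 signal was 0.58 for Emx2 and 0.58 for Gata3, larger than for 94.4% and 94.5% of kept probe sets, and 0.05 for Cdh16, larger than for 4.37%. In HRG the SD of Emx2 was 0.02, larger than for 1.6% of kept probe sets. In 4 of the 5 members, the transcription factors, PTN replicate 1 was the highest and replicate 3 the lowest pleiotrophin array, an order that 26% of all kept probe sets showed. Pax8, counted among the 4, was under the filter and so is not part of the kept probe sets. Krt8 and Krt18 had that order too, and Cdh1 had the reverse one (8774, 12325 and 15021). For Emx2 the most alike genes were Itga6, the integrin alpha 6 chain (root mean square difference 0.11), Sil1 (0.12) and Pheta1 (0.13), against a median of 0.4. For Gata3 they were Plagl2, Gdf9 and Plekhn1 (each 0.14, median 0.44). Neither set passed in any comparison, which is no separate result, since both were picked on these arrays for likeness to members that did not pass.

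Relatives of the members were read from a fixed list of 28 genes that belong to the Pax, LIM, GATA and Emx families or bind their proteins. Of these 13 were on the array and 5 were kept. In HRG 2 of the 5 were higher than in BSN and the same 2 higher than in PTN, and 0 passed in PTN against BSN. Of all kept probe sets 6.92% were higher in HRG than in BSN, 14.1% were higher in HRG than in PTN, and 22.5% passed in PTN against BSN. The list's median was 0.05, 0.03 and -0.07 in the 3 comparisons, beside -0.04, 0.08 and -0.11 over all kept probe sets. Gata2, the closest relative of Gata3 among them, was at 5129 ± 786 in BSN, 11438 ± 551 in HRG and 4455 ± 484 in PTN (n = 3, SD). It rose 2.24-fold in HRG against BSN (log2 change 1.16, 95% interval 0.85 to 1.48, adjusted p = 0.000139) and 2.57-fold against PTN (1.36, 1.05 to 1.67, adjusted p = 2.45e-05). Gata3 did not pass on these arrays, and the difference between the GATA factors' changes was not tested. Gata4 and Gata6 were dim, with means of 801 to 1063 and 673 to 693, and did not pass. Lmo4, a LIM-only protein that competes for the Lhx1 partner Ldb1, was the other gene that rose, 1.29-fold in each comparison, a call lost in 10 of 19 alternatives against BSN (largest adjusted p 0.161) and in 8 of 19 against PTN (0.128). Ldb1 itself was at 1949 ± 237 in BSN, 1541 ± 397 in HRG and 1851 ± 187 in PTN (n = 3, SD) and did not pass.

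Cadherins and catenins formed a list of 24 genes, of which 17 were on the array and 9 were kept. In HRG against BSN 1 was higher, 1 lower and 7 did not pass. In HRG against PTN 3 were higher and 2 lower, and in PTN against BSN 1 was higher and 2 lower. Of all kept probe sets 15.8%, 25.8% and 22.5% passed in these 3 comparisons. The list's median was 0.06, 0.11 and -0.18, beside -0.04, 0.08 and -0.11. Cdh17, the closest relative of Cdh16, was at 1104 ± 274 in BSN, 848 ± 194 in HRG and 824 ± 212 in PTN (n = 3, SD), and its interval for PTN against BSN was -0.96 to 0.12 (adjusted p = 0.243). Cdh1, encoding E-cadherin, changed by 0.06 in that comparison (-0.46 to 0.59, adjusted p = 0.873). Cdh3, encoding P-cadherin, went the other way from Cdh16: it rose 1.52-fold in PTN against BSN (adjusted p = 0.0136), from 1711 ± 213 to 2602 ± 249, a call lost without BSN replicate 3 (0.0632). Cdh11, a mesenchymal cadherin, fell 2.56-fold in PTN against BSN (adjusted p = 0.000219), from 7546 ± 594 to 2973 ± 609, and 3.63-fold in HRG against BSN (adjusted p = 1.09e-05), to 2078 ± 281 (n = 3, SD). Its call in HRG against PTN was lost in 11 of 19 alternatives. Dsc2, a desmosomal cadherin, was at 5108 ± 785 in BSN, 8351 ± 604 in HRG and 3581 ± 701 in PTN (n = 3, SD). It rose in HRG against BSN (adjusted p = 0.0118), a call lost without BSN replicate 3 (0.0614) or HRG replicate 2 (0.0556), and against PTN (0.000188), and its fall in PTN against BSN was lost in 12 of 19 alternatives. Ctnnd1, encoding a catenin that binds cadherin tails, was 1.79-fold higher in HRG than in PTN, a call lost in 5 of 19.

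**Figure D4:**
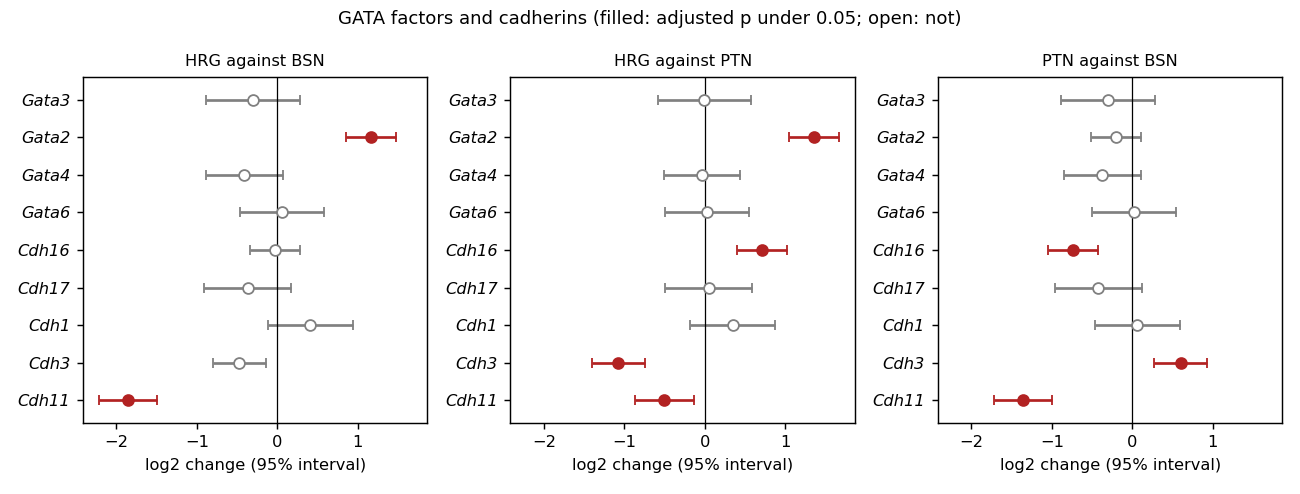
Log2 change with its 95% interval for GATA factors and cadherins with kept probe sets; filled points have an adjusted p under 0.05. Gata2 is filled in both comparisons with HRG (1.16 and 1.36) while Gata3 is open in all 3, and Cdh16, Cdh3 and Cdh11 are filled in PTN against BSN with Cdh3 alone above 0.

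Other transcription regulators of the duct and bud made a list of 30, of which 11 were on the array and 6 were kept. In HRG 1 was higher and 2 lower than in BSN, and 3 higher and 1 lower than in PTN. In PTN 1 was higher and 2 lower than in BSN. Of all kept probe sets 15.8%, 25.8% and 22.5% passed in these 3 comparisons. The median was -0.04, 0.25 and -0.27, beside -0.04, 0.08 and -0.11. Klf5, a zinc finger factor of proliferating epithelia, was at 1758 ± 558 in BSN, 3436 ± 605 in HRG and 1311 ± 137 in PTN (n = 3, SD), and rose in HRG against both (adjusted p = 0.0078 and 0.000644). Mycn, a growth-promoting factor, was also lowest in heregulin, at 746 ± 181 in HRG against 3120 ± 316 in BSN and 6902 ± 791 in PTN (n = 3, SD), and differed between all 3 media (adjusted p = 6.18e-06, 1.28e-07 and 0.00087). The mean of Mycn in HRG lay near the 40th percentile of those arrays (666 to 731). Id2, an inhibitor of helix-loop-helix factors, was 2.13-fold higher in HRG than in PTN (adjusted p = 0.00183), and its fall in PTN against BSN was lost in 11 of 19 alternatives. Hes1, a Notch target, was lower than in BSN in HRG, by 1.48-fold, and in PTN, by 1.47-fold, and both calls were lost after median centring (adjusted p = 0.0702 and 0.145). Without single arrays the Hes1 call against BSN was lost in HRG without BSN replicate 1 (0.0822) or 3 (0.12) or HRG replicate 1 (0.0594) or 3 (0.134), and in PTN without BSN replicate 1 (0.0722) or 3 (0.106) or PTN replicate 3 (0.0933).

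The GDNF and Ret pathway list, whose genes lie downstream of or beside the duct factors, had 8 of its 12 genes on the array and 7 kept. All 7 were lower in HRG than in BSN and 6 of 7 lower than in PTN, as Lhx1 was, and 3 were higher in PTN than in BSN (1 with quantile normalization). Of all kept probe sets 8.86% were lower in HRG than in BSN and 11.7% lower than in PTN. In PTN 9.15% were higher than in BSN. The call of Ros1, a receptor kinase, in HRG against BSN (adjusted p = 0.0435) was lost in 10 of 18 alternatives, among them median centring (0.0763), quantile normalization (0.0854), no filter (0.0867), and without BSN replicate 2 (0.158) or 3 (0.189) or HRG replicate 1 (0.0948), 2 (0.103) or 3 (0.111). Ros1 in HRG was at 611 ± 5.8 (n = 3, SD), under the 40th percentile of those arrays (666 to 731). It was thus kept only through BSN and PTN arrays, and its call is no separate support. Ret itself was 14.5-fold lower in HRG than in BSN. In HRG Ret lay at 790 to 1112, not far above the 40th percentile of those arrays, so the size of that fold is uncertain. Cxcr4, a chemokine receptor, was at 8227 ± 256 in BSN and 677 ± 77.2 in HRG (n = 3, SD), where the 40th percentile was 666 to 731, so it was lower in HRG (adjusted p = 1.8e-08) and no fold is given. Cxcr4 was 1.48-fold higher in PTN than in BSN, a call lost in 4 of 19 alternatives. The median was -1.52, -1.7 and 0.18, beside -0.04, 0.08 and -0.11. Of genes reported as targets of HNF1 or Pax8 factors, among which Cdh16 is also counted, only Kif12 and Tg were kept of 13 listed. Kif12, a kinesin, was at 1580 ± 226 in BSN, 1350 ± 263 in HRG and 826 ± 256 in PTN (n = 3, SD). It fell 1.94-fold in PTN against BSN (adjusted p = 0.00978), as Cdh16 did, and its call in HRG against PTN was lost in 6 of 18 alternatives. Tg passed in none of the 3. Collecting duct and tubule genes had 9 kept of 15: 5 were higher in HRG than in BSN, 6 higher and 1 lower in HRG than in PTN, and 2 higher and 1 lower in PTN than in BSN. Of all kept probe sets, 6.92% were higher in HRG than in BSN. In HRG against PTN 14.1% were higher and 11.7% lower, and in PTN against BSN 9.15% and 13.4%. The list's median was 0.64, 1.04 and 0.03, beside -0.04, 0.08 and -0.11. The call of Slc14a2 in HRG against BSN was lost in 7 of 19 alternatives (largest adjusted p 0.158). Of the aquaporin water channels, Aqp3 was at 9668 ± 1569.6 in HRG against 524 ± 101 in BSN, and Aqp4 at 16880.1 ± 1551 against 4656 ± 1513 (n = 3, SD), and both rose. Aqp3 in BSN lay under the 40th percentile of those arrays (705 to 788), so its call against BSN is no separate support and no fold is given. Aqp2 was at 1531 ± 746 in PTN, 183 ± 30.7 in HRG and 139 ± 26.7 in BSN. It was kept only through PTN, since HRG and BSN lay under the filter, so its calls are no separate support. The gene lower in PTN was Hsd11b2, which protects the mineralocorticoid receptor from glucocorticoids, at 4559 ± 1158 in BSN, 3312 ± 500.1 in HRG and 1615 ± 324 in PTN (n = 3, SD), a 2.78-fold fall against BSN (adjusted p = 0.000374).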

How the data were processed

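Ureteric buds in 3 media were measured on 9 Affymetrix arrays. Per the submitters' processing notes, the authors made the deposited intensity values with GCOS, with no version or settings stated in the labels. The value table holds no detection calls. Intensities were taken as deposited, without further scaling, after 57 control probe sets were set aside. Symbols came from the platform's probe table, where 12789 probe sets have 1 symbol, 312 several and 2822 none, and 12754 matched a rat gene table (GRCr8) by Entrez ID. The log2 of the deposited intensity plus 16 entered one limma model (version 3.58.1, under R 4.3.3; lmFit, contrasts and eBayes with an intensity trend; 6 residual degrees of freedom, 12.7 after moderation). The fit was tested on simulated data. The number of arrays limits the precision.

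Genes other than members were named by rule: the 3 genes most like each member, and from each list up to 2 highest and 2 lowest by moderated t among those that passed. Each list gene was read from its brightest kept probe set. Others named (Cdh1, Cdh17, Gata4, Gata6, Ldb1, Krt8, Krt18, Epcam, Tg, Ros1, Slc14a2 and the other cell type markers) were chosen after their values were seen. Members and lists were chosen with earlier results of these data known. Same-numbered HRG and PTN arrays deviated together (correlations 0.266, 0.332 and 0.118), a pairing taken from the data and not stated in the labels, while the pairs of HRG with BSN (-0.055 to 0.13) and PTN with BSN (-0.097 to -0.011) did not all. The fit without a block was kept as planned. Alternatives were quantile normalization, median centring, pseudocounts of 1 and 64, no filter and a 60th percentile filter, no trend, weights per array, a fit to the compared groups alone, replicate number as a block, an adjusted p under 0.01 and each array left out. Figures were drawn with matplotlib 3.10.9.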

Additional observations from a re-analysis of the deposited data

How the results depend on the processing

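Lhx1 in both comparisons with HRG and Cdh16 in both comparisons with PTN kept their direction and passed in all 19 alternative fits, and as reported they also passed at an adjusted p under 0.01. The largest adjusted p over those fits was 0.00175 and 0.00126 for Lhx1 against BSN and PTN, 0.0193 for Cdh16 in HRG against PTN and 0.0381 in PTN against BSN. With the replicate number as a block, Lhx1 changed by -1.35 and -1.31 (adjusted p = 0.000206 and 0.000153) and Cdh16 by 0.71 and -0.74 (0.00488 and 0.00546), and no member's call changed. Changes that did not pass turned in sign: with median centring Cdh16 in HRG against BSN (0.076), Emx2 in PTN against BSN (0.012) and Lhx1 in PTN against BSN (0.17), and with array weights Emx2 (0.024) and Gata3 (0.29) in HRG against PTN. Leaving out each array in turn gave ranges of -0.11 to 0.10 for Cdh16 in HRG against BSN, -0.41 to 0.16 for Emx2 and -0.25 to 0.32 for Gata3 in HRG against PTN, and -0.48 to 0.10 for Emx2, -0.62 to -0.053 for Gata3 and -0.20 to 0.044 for Lhx1 in PTN against BSN. Without PTN replicate 1 the members called in PTN against BSN were 3, and 1 to 3 over all arrays left out. Over all probe sets the calls were 1053 to 2225 with an array left out in HRG against BSN (1053 without HRG replicate 3), 1882 to 3109 in HRG against PTN and 1358 to 3222 in PTN against BSN (1358 without BSN replicate 3), with the cause not tested. Array weights gave 2439 calls in HRG against BSN and 3480 in PTN against BSN, and an adjusted p under 0.01 gave 844, 1475 and 1066 in the 3 comparisons. With the 60th percentile filter Gata3 was not kept and has no value. Pax8 lies under the filter, which limits what its values can show.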

Other observations

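Lhx1 also marks the early nephron, and early nephron markers on these arrays went both ways. Of 12 markers all 12 were on the array and 4 were kept. Wnt4, the signal that starts nephron formation, was at 174, 377 and 497 in BSN and 510, 52.4 and 228 in PTN, and at 2449, 2164 and 1824 in HRG. It was higher in HRG than in BSN (log2 change 2.67, adjusted p = 0.00761) and in PTN (3.38, adjusted p = 0.00111). In both other media Wnt4 lay under the filter on every array, where the size of a change depends on the pseudocount. It was thus kept only through HRG, the medium where it was high, so these calls are no separate support. Lrp2, the endocytic receptor megalin, was at 1513 ± 696 in BSN, 2092 ± 409 in PTN and 4780 ± 933 in HRG (n = 3, SD) and rose in HRG against both (adjusted p = 0.00147 and 0.0113), the second call being lost without HRG replicate 1 (0.0555). Synpo, an actin-binding protein of podocytes, fell in HRG against BSN from 2579 ± 341 to 1219 ± 157 (adjusted p = 0.000702), and Jag1, a Notch ligand, was at 1497 ± 234 and 1386 ± 168 (adjusted p = 0.854). The nephron genes Umod, Slc12a1, Nphs1 and Cubn were not kept in any medium. Synpo was also lower in HRG than in PTN (adjusted p = 0.0326), a call lost in 6 of 19 alternatives. With Wnt4 set aside for that reason, Lhx1 in HRG moved opposite to Lrp2 and in the direction of Synpo on these arrays.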
